A study of Mus musculus with 12 samples.

Results

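The MAGE family is a group of genes that share the MAGE homology domain. Many MAGE proteins bind E3 ubiquitin ligases and change which proteins those ligases act on. One branch, which holds the Magea and Mageb genes, is active mainly in germ cells and in tumours, while the Maged, Mageh and Magel genes are transcribed in many somatic tissues. The account below covers 8 family genes, which were listed as 4 of the germ-line type (Magea5, Magea6, Mageb3 and Mageb4) and 4 of the broadly expressed type (Maged1, Maged2, Mageh1 and Magel2). Every probe set of the array that is annotated to exactly 1 of these symbols was taken. That gave 8 probe sets for 7 genes, out of 18193 genes with such a probe set. No probe set carried Mageb4 as its only symbol, so Mageb4 was not analysed here. The genes were chosen with their differences between the genotypes of these same arrays in view, so those differences are a description, with no test.

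RNA of whole testes from mice at postnatal day 7, on a hybrid background of C57BL/6 and 129S5/SvEvBrd, was hybridised to 12 Affymetrix expression arrays. The 3 groups of 4 arrays were Sohlh1-/- (Sohlh1 KO), Sohlh2-/- (Sohlh2 KO) and wild type. Sohlh1 and Sohlh2 are basic helix-loop-helix transcription factors of spermatogonia, and the labels name the knockouts without giving the deleted exons or a Cre driver. RNA of 3 testes, 1 from each animal, was pooled on each array, which makes 12 animals a group and lets the spread of arrays show differences among pools only. Values are MAS5 signals on a linear scale, in arbitrary units, and a signal of one probe set cannot be ranked against that of another. In such bulk tissue, fewer cells of a type and less RNA per cell cannot be told apart.

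The arrays were first read for their labels. The Sohlh1 probe set gave 50.2 to 104 on 3 of the 4 arrays labelled Sohlh1 KO and 595 on replicate 5, against 1125 to 1233 in wild type. The Sohlh2 probe set gave 73.2 to 157 on 3 of the 4 arrays labelled Sohlh2 KO and 1847 on replicate 1, against 885 to 1200 in wild type. On Sohlh1 KO replicate 5 the Sohlh2 signal was 94.4, and on Sohlh2 KO replicate 1 the Sohlh1 signal was 126. The other arrays labelled Sohlh1 KO had Sohlh2 at 1556 to 1783, and the other arrays labelled Sohlh2 KO had Sohlh1 at 465 to 563. Sohlh1 KO replicate 5 and Sohlh2 KO replicate 1 thus went against their labels. In both genes each was nearer to the other arrays of the opposite knockout. The groups are given as labelled, and values without these 2 arrays are given too. Sohlh1 KO replicate 2 and Sohlh2 KO replicate 1 also had raised 3' to 5' signal ratios of the Gapdh control probes (1.17 and 1.63), against 0.744 to 0.818 on the other 10 arrays.

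The upstream sequences of 4 of the genes are shown first, because 3 of them were higher in both knockouts and Maged1 was not. Each run is the 250 bases before the RefSeq gene start in build GRCm38.p6, 5′ to 3′, and capitals mark the E-box CANNTG, the word that basic helix-loop-helix factors bind as a class. The word equals its own reverse complement, so 1 search covers both strands. The runs are chrX:155061554-155061803, chrX:154926116-154926365, chr2:121956093-121956342 and chrX:94542026-94542275, all on the minus strand.
Magea5: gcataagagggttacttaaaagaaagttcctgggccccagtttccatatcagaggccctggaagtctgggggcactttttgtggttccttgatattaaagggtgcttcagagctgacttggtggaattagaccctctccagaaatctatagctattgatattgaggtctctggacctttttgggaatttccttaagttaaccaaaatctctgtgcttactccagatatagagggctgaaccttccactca
Magea6: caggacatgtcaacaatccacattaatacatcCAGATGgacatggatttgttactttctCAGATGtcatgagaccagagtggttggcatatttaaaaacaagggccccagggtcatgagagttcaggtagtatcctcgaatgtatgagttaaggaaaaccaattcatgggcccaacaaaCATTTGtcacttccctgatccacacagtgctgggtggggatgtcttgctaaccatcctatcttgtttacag
Mageb3: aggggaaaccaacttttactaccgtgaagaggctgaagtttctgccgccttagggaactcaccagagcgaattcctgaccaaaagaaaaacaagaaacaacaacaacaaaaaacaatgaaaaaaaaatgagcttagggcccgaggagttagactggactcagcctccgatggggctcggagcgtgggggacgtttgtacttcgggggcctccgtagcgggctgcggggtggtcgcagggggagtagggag
Maged1: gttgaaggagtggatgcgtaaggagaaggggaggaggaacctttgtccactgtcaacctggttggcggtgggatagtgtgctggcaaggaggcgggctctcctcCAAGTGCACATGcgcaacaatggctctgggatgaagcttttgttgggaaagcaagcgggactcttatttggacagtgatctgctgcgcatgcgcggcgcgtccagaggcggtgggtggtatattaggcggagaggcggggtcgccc

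The 3 germ-line type genes had unlike upstream sequences. Magea6 held 3 E-boxes, while the windows of Magea5 and Mageb3 held 0. Maged1 held 2, which stand side by side and share no base. The word is common: 66.22% of all 32851 RefSeq windows of this length held at least 1. The windows also differed in CpG dinucleotides, with 0 in Magea5, 1 in Magea6, 13 in Mageb3 and 14 in Maged1, against a median of 6 over all windows. A window with 0 CpG was found for 7.87% of all windows and one with at most 1 for 18.8%. All 8 listed genes matched the RefSeq table. Mageb4, for which no signal is given, had 0 E-boxes and 9 CpG, Mageh1 had 1 and 11, and Magel2 had 2 and 7. A match is a description of letters, and windows without the word show nothing about either factor.

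Of the germ-line type, Magea5, Magea6 and Mageb3 each had mean signals 2.23 to 2.94 times as high in the knockouts as in wild type. In none of them did a knockout array reach down into the wild-type range. How many of all probe sets tested were separated in this way was not counted, so such separation is a description only. For the broadly expressed Maged1, Maged2, Mageh1 and Magel2 the arrays of the 3 groups overlapped. The germ-line type is described first.

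Magea5 lies on the X chromosome and encodes a MAGE-A protein, a class known in humans as cancer-testis antigens. Its signals were 1306, 1053, 1107 and 1284 in Sohlh1 KO testes. They were 1540, 866, 1266 and 1292 in Sohlh2 KO testes, and 491, 519, 569 and 416 in wild type. Every knockout array was above every wild-type array, the lowest knockout array being Sohlh2 KO replicate 3-1. The means were 1188 ± 126 in Sohlh1 KO, 1241 ± 279 in Sohlh2 KO and 499 ± 64.0 in wild type (SD, n = 4 each). On the scale of log2(signal + 14.2), Sohlh1 KO was above wild type by 1.23 (SE 0.16) and Sohlh2 KO by 1.27 (SE 0.16). In both knockout groups the highest Magea5 signal was on the array with the raised 3' to 5' ratio. Without those 2 arrays the log2 differences were 1.18 in Sohlh1 KO and 1.16 in Sohlh2 KO.

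Magea6, a second MAGE-A gene of the X chromosome, gave the largest ratios to wild type of the listed genes. It had signals of 392, 372, 380 and 391 in Sohlh1 KO testes. In Sohlh2 KO testes they were 470, 294, 356 and 475, and in wild type 115, 124, 179 and 127. The Sohlh1 KO arrays lay close together, the Sohlh2 KO arrays were spread more widely, and neither group overlapped with wild type. The means were 384 ± 9.71 in Sohlh1 KO, 399 ± 88.8 in Sohlh2 KO and 136 ± 29.0 in wild type (SD, n = 4 each). The Sohlh1 KO mean was 2.82 times and the Sohlh2 KO mean 2.94 times that of wild type, with log2 differences of 1.43 (SE 0.17) in Sohlh1 KO and 1.45 (SE 0.17) in Sohlh2 KO.

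Mageb3, a MAGE-B gene, lies on chromosome 2, away from the X chromosome. Its signals were 396, 336, 389 and 465 in Sohlh1 KO testes. They were 371, 518, 467 and 480 in Sohlh2 KO testes, and 191, 149, 205 and 167 in wild type. All 8 knockout arrays were above all 4 of wild type. The means were 396 ± 53.0 in Sohlh1 KO, 459 ± 62.5 in Sohlh2 KO and 178 ± 24.9 in wild type (SD, n = 4 each). The log2 difference from wild type was 1.10 (SE 0.15) in Sohlh1 KO and 1.30 (SE 0.15) in Sohlh2 KO.

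Within the Sohlh2 KO group the order of the arrays differed between these genes. Replicate 1 had the highest Magea5 signal and the lowest Mageb3 signal of its group, and replicate 3-1 had the lowest Magea5 and Magea6 signals and the highest Mageb3 signal. Replicate 1 is an array that went against its label and had the highest 3' to 5' ratio of all 12.

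Between the knockouts the germ-line type genes differed little, with both groups of 4 overlapping for each gene. The log2 difference of Sohlh2 KO from Sohlh1 KO was 0.04 (SE 0.16) for Magea5, 0.03 (SE 0.17) for Magea6 and 0.20 (SE 0.15) for Mageb3. Without the 2 arrays that went against their labels, Mageb3 averaged 488 ± 26.6 in Sohlh2 KO and 374 ± 32.9 in Sohlh1 KO (SD, n = 3 each), and the 2 sets of arrays no longer overlapped. The log2 difference was then 0.38 (SE 0.15). Those for Magea5 and Magea6 turned to -0.03 (SE 0.16) and -0.05 (SE 0.20). Against wild type, without the same arrays, the log2 difference of Sohlh1 KO was 1.19 for Magea5, 1.42 for Magea6 and 1.02 for Mageb3. That of Sohlh2 KO was 1.16 for Magea5, 1.37 for Magea6 and 1.40 for Mageb3.

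A further probe set is annotated to 6 Magea genes at once, so its signal belongs to no single gene. It gave 1561, 1789, 1808 and 1960 in Sohlh1 KO testes. It gave 1538, 1608, 2186 and 2207 in Sohlh2 KO testes, and 621, 738, 916 and 900 in wild type. As with the single Magea genes, no knockout array fell within the wild-type range. The ratios to wild type were 2.24 in Sohlh1 KO and 2.37 in Sohlh2 KO, and the log2 differences 1.16 in Sohlh1 KO and 1.23 in Sohlh2 KO (SE 0.15 each). In RefSeq the stretch of the X chromosome that begins with Magea6 and ends with Magea1 holds 9 annotated genes, 6 of them Magea genes, with Magea5 next to Magea1. The array's probe sequences were not used here, so how far near-identical Magea transcripts share signal was not tested.

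**Figure D1:**
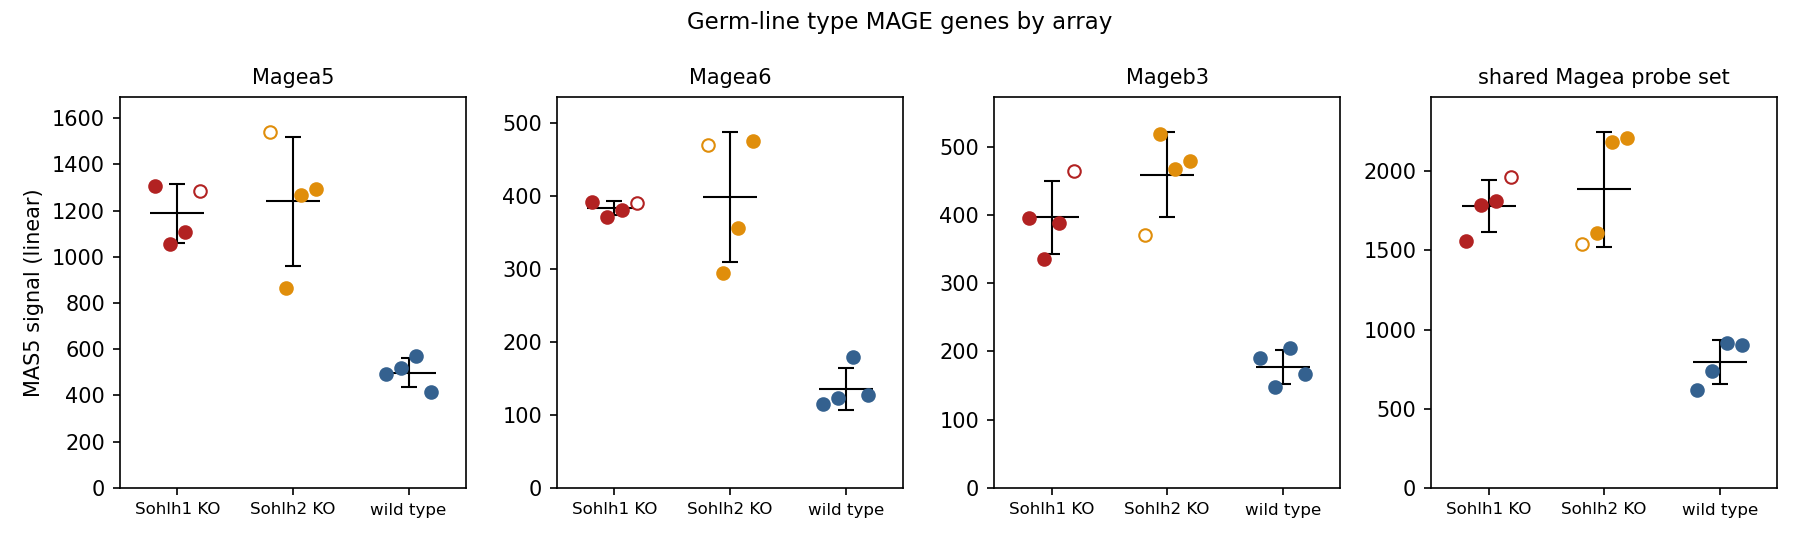
MAS5 signal (linear axis from 0) of Magea5, Magea6, Mageb3 and the probe set annotated to 6 Magea genes on each array of Sohlh1 KO, Sohlh2 KO and wild type, with the mean and SD of 4 arrays and the 2 arrays that went against their labels as open circles. In all 4 panels every knockout array lies above every wild-type array, and the 2 knockout groups overlap.

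Maged1, on the X chromosome, encodes a protein that binds the p75 neurotrophin receptor. Its signals were 20711, 20170, 21059 and 19351 in Sohlh1 KO testes. They were 22654, 18826, 20538 and 17415 in Sohlh2 KO testes, and 15675, 18756, 18768 and 22061 in wild type. The 3 groups overlapped, and wild type spanned almost the whole range. The means were 20323 ± 744 in Sohlh1 KO, 19858 ± 2259 in Sohlh2 KO and 18815 ± 2608 in wild type (SD, n = 4 each). The log2 differences from wild type were 0.12 in Sohlh1 KO and 0.08 in Sohlh2 KO (SE 0.10 each).

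Maged2, another X-linked gene, whose human counterpart is mutated in a transient antenatal form of Bartter syndrome, had 2 probe sets. The brighter gave 3824, 4263, 4868 and 4557 in Sohlh1 KO testes. It gave 4026, 4729, 4261 and 4033 in Sohlh2 KO testes, and 4304, 4957, 4405 and 4136 in wild type. The groups overlapped, and the log2 differences from wild type were -0.03 (SE 0.09) in Sohlh1 KO and -0.06 (SE 0.09) in Sohlh2 KO. The dim one ranged over 61.1 to 209 in Sohlh1 KO, 18.4 to 168 in Sohlh2 KO and 79.5 to 129 in wild type. Its log2 differences were 0.18 in Sohlh1 KO and -0.51 in Sohlh2 KO, with an SE of 0.45 each.

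Mageh1, also an X-linked member of the broad type, gave 419, 458, 450 and 457 in Sohlh1 KO testes. It gave 346, 502, 425 and 534 in Sohlh2 KO testes, and 438, 409, 355 and 481 in wild type. The lowest and the highest of all 12 arrays were both Sohlh2 KO arrays, the lowest being replicate 1. The log2 difference from wild type was 0.09 (SE 0.14) in each knockout.

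Magel2, on chromosome 7, is an imprinted gene of the region that is lost in human Prader-Willi syndrome, and its protein acts with a ubiquitin ligase in endosomal sorting. It was dim: only 9 of 12 arrays lay above 48.6, the signal used as the lower limit for testing. The values were 67.5, 80.0, 77.2 and 78.8 in Sohlh1 KO testes, 52.2, 42.9, 87.3 and 68.5 in Sohlh2 KO testes, and 26.2, 77.4, 86.3 and 41.8 in wild type. Wild type alone covered a wider range than both knockout groups. The log2 differences were 0.41 (SE 0.30) in Sohlh1 KO and 0.15 (SE 0.30) in Sohlh2 KO.

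**Figure D2:**
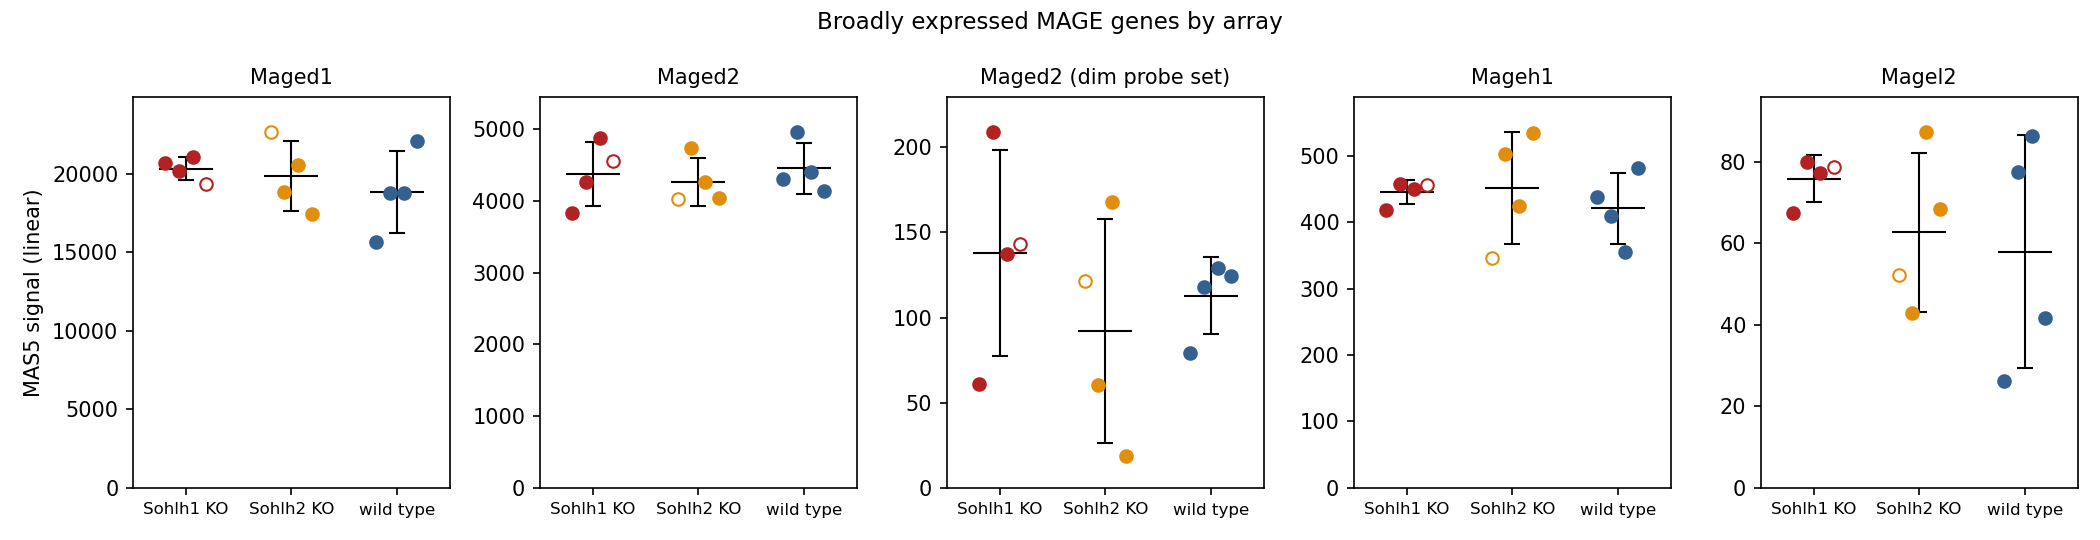
MAS5 signal (linear axes from 0) of Maged1, the bright and the dim probe set of Maged2, Mageh1 and Magel2 on each array of Sohlh1 KO, Sohlh2 KO and wild type, with the mean and SD of 4 arrays and the 2 arrays that went against their labels as open circles. The 3 groups overlap in every panel.

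All 8 probe sets of the listed genes passed the filter on low values, a signal above 48.6 on at least 4 of the 12 arrays, and 6 were above it on every array. In the limma fit of all 28694 probe sets that passed, 3 of the 8 were higher in Sohlh1 KO at an adjusted p under 0.05 and 0 were lower. Over all probe sets 0.707% were higher and 1.38% lower in that comparison. In Sohlh2 KO the same 3 were higher and 0 lower, where 0.606% of all were higher and 0.944% lower. Both comparisons use the same wild-type arrays, and since the genes were chosen from them these counts carry no weight as evidence. Between Sohlh2 KO and Sohlh1 KO, limma called 0 of the 8 and 0.0% of all probe sets at that threshold. An unadjusted limma p under 0.05 was reached by 767 of the 28694, fewer than chance alone gives where no probe set differs. Leaving out the 2 arrays that went against their labels, that comparison called 9 probe sets, none of them of a listed gene. An unadjusted limma p under 0.05 was then reached by 1943 of the 28694, more than chance alone gives. The 767 thus belongs to the groups as labelled only. The counts of 3, 3 and 0 were the same in 29 of 29 alternative settings, some of which left out probe sets of Maged1, Maged2 or Magel2. Those settings refit the arrays by which the genes were chosen, so this sameness carries no weight as evidence either.

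The other genes of the family were not on the list. Their probe sets covered 8 genes, and of these Mageb16 passed the threshold in Sohlh1 KO and none did in Sohlh2 KO. Mageb16, a MAGE-B gene of the X chromosome, had signals of 2114, 2244, 1966 and 1919 in Sohlh1 KO testes. In Sohlh2 KO testes they were 1749, 1294, 2166 and 1877, and in wild type 1141, 1380, 1268 and 1268. All Sohlh1 KO arrays were above wild type, while Sohlh2 KO replicate 3-1 lay inside the wild-type range.

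Mageb16 rose in Sohlh1 KO by 0.70 on the log2 scale (SE 0.13, limma adjusted p = 0.0136). Without the 2 arrays that went against their labels the rise was 0.73 (limma adjusted p = 0.0148). In Sohlh2 KO the difference of 0.46 (SE 0.13) did not pass (limma adjusted p = 0.111), but it did without replicate 3-1, at 0.60 (limma adjusted p = 0.0173). The difference of Sohlh2 KO from Sohlh1 KO was -0.24 (SE 0.13), with a limma adjusted p of 1.00.

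The remaining family genes did not pass in either knockout. Magea4, whose human counterpart is a cancer-testis antigen, had means of 96.7 ± 12.6 in Sohlh1 KO, 134 ± 58.6 in Sohlh2 KO and 59.5 ± 26.4 in wild type (SD, n = 4 each). Its log2 differences were 0.64 in Sohlh1 KO (limma adjusted p = 0.377) and 0.95 in Sohlh2 KO (limma adjusted p = 0.198). Both groups of knockout arrays overlapped with wild type, which reached 98.5.

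Tro, which encodes the adhesion protein trophinin, averaged 743 ± 82.3 in Sohlh1 KO, 822 ± 176 in Sohlh2 KO and 581 ± 54.3 in wild type (SD, n = 4 each). On this brighter probe set all 8 knockout arrays were above all 4 of wild type. The log2 differences of 0.34 in Sohlh1 KO (limma adjusted p = 0.276) and 0.47 in Sohlh2 KO (limma adjusted p = 0.144) missed the threshold. On a dimmer Tro probe set the groups overlapped, at 282 to 385 in Sohlh1 KO, 262 to 518 in Sohlh2 KO and 221 to 356 in wild type. Its log2 differences were 0.32 in Sohlh1 KO and 0.39 in Sohlh2 KO. Ndn encodes the imprinted growth suppressor necdin and is the RefSeq neighbour of Magel2 on chromosome 7. By its brightest probe set Ndn differed from wild type on the log2 scale by 0.23 in Sohlh1 KO (limma adjusted p = 0.388) and 0.20 in Sohlh2 KO (limma adjusted p = 0.513). Other tested Ndn probe sets ranged from 0.04 to 0.32 in Sohlh1 KO and from 0.001 to 0.27 in Sohlh2 KO.

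Magef1 had negative log2 differences, -0.27 in Sohlh1 KO (limma adjusted p = 0.587) and -0.35 in Sohlh2 KO (limma adjusted p = 0.506). So did Magee1, which encodes a dystrobrevin-binding protein, at -0.17 in Sohlh1 KO and -0.30 in Sohlh2 KO. Nsmce3, a subunit of the SMC5/6 complex, was at 0.12 in Sohlh1 KO and 0.08 in Sohlh2 KO. The pseudogene Magea7-ps, above the lower limit on 8 arrays, was at 0.18 in Sohlh1 KO and -0.14 in Sohlh2 KO (SE 0.58 each). The median log2 difference of the 8 genes was 0.21 in Sohlh1 KO and 0.14 in Sohlh2 KO, beside -0.0027 and -0.0038 over all probe sets tested in those comparisons.

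**Figure D3:**
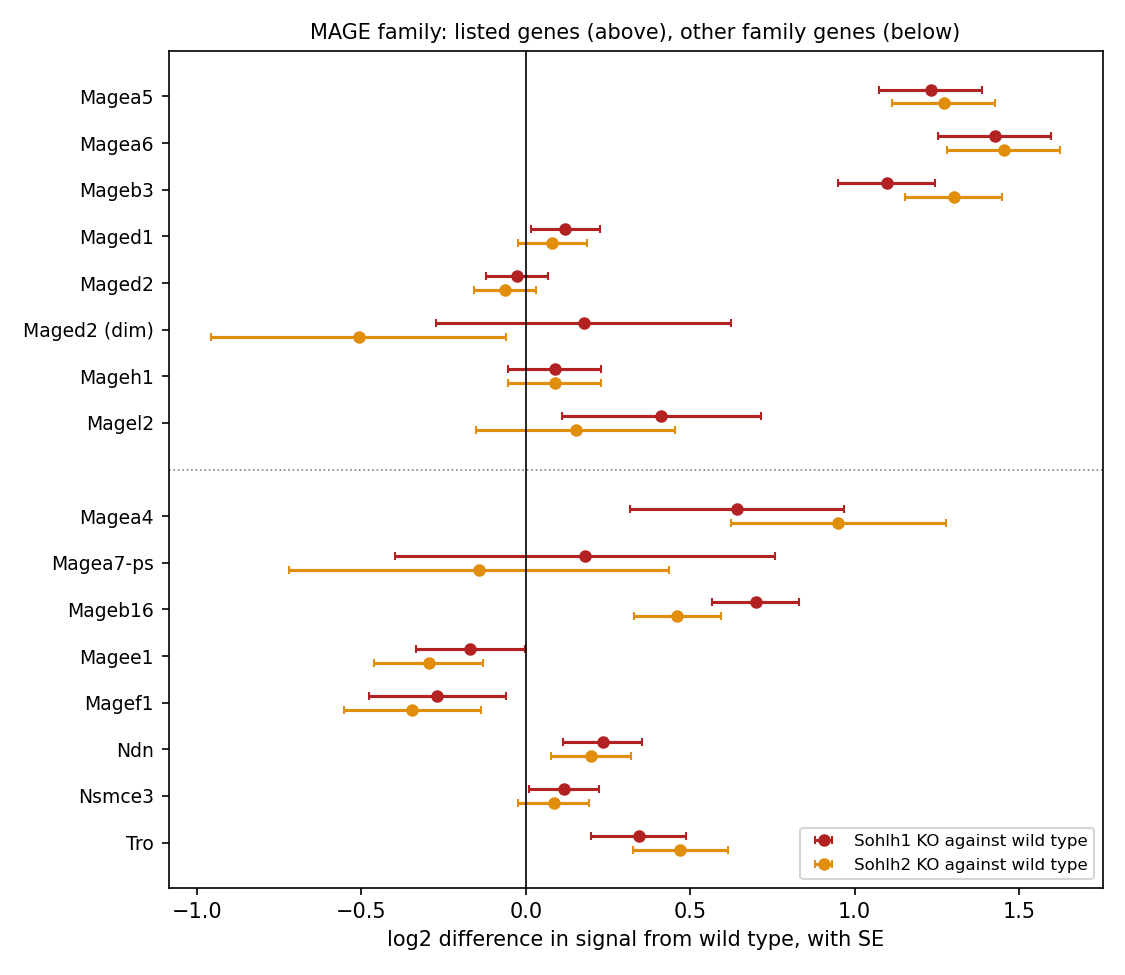
Difference of each knockout from wild type, in log2(signal + 14.2) with its SE from the fit of 12 arrays, for the 8 probe sets of the listed genes (above the dotted line) and 8 other MAGE family genes (below it). Magea5, Magea6 and Mageb3 lie between 1.10 and 1.45, and no other gene shown reaches 1.

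The proteins that MAGE proteins are known to bind were read as a list of 18 genes, of which 16 were tested. None rose and 1 fell in each knockout, with a median log2 difference of 0.03 in Sohlh1 KO and 0.02 in Sohlh2 KO. The gene that fell was Smc5, a core subunit of the SMC5/6 complex to which Nsmce3 belongs. It averaged 1241 ± 74.4 in Sohlh1 KO, 1291 ± 14.4 in Sohlh2 KO and 1657 ± 101 in wild type (SD, n = 4 each). Smc5 fell by 0.41 (SE 0.08, limma adjusted p = 0.0197) in Sohlh1 KO and fell by 0.36 (SE 0.08, limma adjusted p = 0.0484) in Sohlh2 KO. Both calls lay near the threshold: of 29 alternative settings, 10 lost the call in Sohlh1 KO and 18 that in Sohlh2 KO. Without the 2 arrays that went against their labels the difference was -0.35 in Sohlh2 KO (limma adjusted p = 0.0775), and without these and the other array of raised 3' to 5' ratio it was -0.40 in Sohlh1 KO (limma adjusted p = 0.0539).

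Msx2, a homeobox factor that MAGE-D1 binds, averaged 94.7 ± 24.9 in Sohlh1 KO, 89.4 ± 30.8 in Sohlh2 KO and 41.6 ± 23.6 in wild type, and did not pass in Sohlh1 KO (limma adjusted p = 0.145) or Sohlh2 KO (limma adjusted p = 0.218). It passed as higher in Sohlh1 KO without the 2 arrays of raised 3' to 5' ratio, at a log2 difference of 1.18 (limma adjusted p = 0.0498), and in both knockouts with array weights. Unc5a, a netrin receptor bound by MAGE-D1, was at -0.75 in Sohlh1 KO (limma adjusted p = 0.421) and -0.45 in Sohlh2 KO (limma adjusted p = 0.676) on the log2 scale and did not pass.

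A list of 21 other X-linked genes known from germ cells was also read. Of these 11 were tested, and 0 rose and 3 fell in each knockout, with median log2 differences of -0.39 in Sohlh1 KO and -0.40 in Sohlh2 KO. Tex11, a gene needed for meiotic recombination, fell by 1.04 in Sohlh1 KO (limma adjusted p = 0.000213) and fell by 0.87 in Sohlh2 KO (limma adjusted p = 0.000946). Sox3, a transcription factor of spermatogonia, fell by 1.11 in Sohlh1 KO (limma adjusted p = 0.000408) and fell by 1.00 in Sohlh2 KO (limma adjusted p = 0.000946). Esx1, a homeobox gene, fell by 2.13 in Sohlh1 KO (limma adjusted p = 0.000486) and fell by 2.03 in Sohlh2 KO (limma adjusted p = 0.000754). The SE of these differences was 0.11 for Tex11, 0.13 for Sox3 and 0.25 for Esx1. Without the 2 arrays that went against their labels 4 fell in Sohlh1 KO and 3 in Sohlh2 KO.

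Markers of the cells of the testis were read from lists, and some passed the threshold in the knockouts. Of 12 tested markers of germ cells of any stage, 2 rose and 0 fell in each knockout. Their summed signal was 32073 to 36481 in Sohlh1 KO, 33544 to 37680 in Sohlh2 KO and 32967 to 37280 in wild type, so the ranges overlapped. Such a sum of linear signals is weighted to the brightest probe sets, here Dazl with a wild-type mean of 12280. Of 14 markers of undifferentiated spermatogonia, 3 rose and 1 fell in each knockout, and their summed signal was 10117 to 13047 in Sohlh1 KO, 11624 to 13792 in Sohlh2 KO and 9952 to 10948 in wild type. Without the 2 arrays of raised 3' to 5' ratio the markers of undifferentiated spermatogonia that rose were 3 in Sohlh1 KO and 5 in Sohlh2 KO.

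Among these, Gfra1, a subunit of the GDNF receptor, rose by 0.97 in Sohlh1 KO (limma adjusted p = 0.00287) and by 1.01 in Sohlh2 KO (limma adjusted p = 0.00261). Id4, an inhibitor of helix-loop-helix factors, rose by 0.82 in Sohlh1 KO (limma adjusted p = 0.00356) and by 0.81 in Sohlh2 KO (limma adjusted p = 0.00457). Neurog3, a factor of progenitor spermatogonia, fell by 1.19 in Sohlh1 KO (limma adjusted p = 0.00146) and fell by 0.98 in Sohlh2 KO (limma adjusted p = 0.00719). Their SE was 0.15 for Gfra1, 0.13 for Id4 and 0.16 for Neurog3. Magea5, Magea6 and Mageb3 were higher in the same groups as Gfra1 and Id4, while Neurog3 of the same list was lower there. The part of undifferentiated spermatogonia in the higher MAGE signals was not tested.

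Of 12 markers of differentiating spermatogonia, which include Sohlh1 and Sohlh2 themselves, 6 fell in Sohlh1 KO and 5 in Sohlh2 KO, and 0 rose. The targeted gene Sohlh1 was among the 6 in Sohlh1 KO, at -3.12 (limma adjusted p = 0.0118). In Sohlh2 KO, with replicate 1 kept as labelled, neither Sohlh1 (limma adjusted p = 0.202) nor Sohlh2 (limma adjusted p = 0.309) passed. Their log2 differences there were -1.66 (SE 0.58) for Sohlh1 and -2.18 (SE 0.92) for Sohlh2. All arrays labelled Sohlh2 KO had Sohlh1 signals of 126 to 563, below the 1125 to 1233 of wild type. For Sohlh2, replicate 1 was at 1847, and the other arrays so labelled were far below wild type. The summed signal of the 12, both targeted genes included, was 16305 to 16919 in Sohlh1 KO, 15841 to 20844 in Sohlh2 KO and 24004 to 27932 in wild type. Kit, the receptor of stem cell factor, averaged 453 ± 91.2 in Sohlh1 KO, 442 ± 76.6 in Sohlh2 KO and 1739 ± 176 in wild type (SD, n = 4 each). Crabp1, a retinoic acid binding protein, fell by 2.47 in Sohlh1 KO and fell by 2.22 in Sohlh2 KO on the log2 scale (SE 0.14 each). Dmrtb1, a regulator of the switch to meiosis, fell by 2.52 in Sohlh1 KO and fell by 2.21 in Sohlh2 KO (SE 0.24 each). In limma, Kit included, all 6 of these differences of the 3 genes had adjusted p values of at most 0.000272. Without the 2 arrays that went against their labels 6 of the 12 markers fell in Sohlh1 KO and 7 in Sohlh2 KO. Sohlh1 and Sohlh2 were still on the list for these counts.

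Markers of somatic cells gave few calls. Of 12 Sertoli cell markers, 0 passed in Sohlh1 KO and only Dmrt1, which germ cells express too, fell in Sohlh2 KO, by 0.32 (SE 0.07, limma adjusted p = 0.0352). Its difference in Sohlh1 KO was -0.28 (SE 0.07, limma adjusted p = 0.0627), and that of Sohlh2 KO from Sohlh1 KO was -0.05 (SE 0.07). Of 29 alternative settings 8 gave a call in Sohlh1 KO, among them the one without the 2 arrays of raised 3' to 5' ratio, and 15 lost the call in Sohlh2 KO, among them the one without the 2 arrays that went against their labels. The summed Sertoli signal was 83556 to 90910 in Sohlh1 KO, 78607 to 87182 in Sohlh2 KO and 76389 to 85686 in wild type. Clu, with a wild-type mean of 34170, weighs heavily in it. In limma none of 5 Leydig cell, 5 peritubular muscle and 7 leukocyte markers passed in either knockout, with 0, 1 and 0 at an unadjusted p under 0.05 in each.

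The genes whose pattern over the arrays was most like each germ-line type gene were taken as those with the smallest root mean square (RMS) difference in centred log2 signal over the 12 arrays. For Magea5 the nearest of 13701 other genes was Magea6, at an RMS difference of 0.17, followed by Mgat4a, a glycosyltransferase of N-glycans, at 0.20 and Dppa4, a pluripotency-associated nuclear protein, at 0.21. For Magea6 they were Magea5 at 0.17, Dppa4 at 0.20 and Pax5, a transcription factor of B cells, at 0.27. For Mageb3 they were Irs4, an insulin receptor substrate, and Dppa4, both at 0.18, and Morc1, which silences transposons in the male germ line of mice, at 0.19. The median RMS difference of all genes was 0.65 from Magea5, 0.73 from Magea6 and 0.63 from Mageb3.

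Magea5 and Magea6 were thus each other's nearest gene, while Mageb3 ranked 29th for Magea5 and 14th for Magea6. Dppa4 was among the 3 nearest of each. It averaged 1058 ± 44.6 in Sohlh1 KO, 1051 ± 38.7 in Sohlh2 KO and 414 ± 50.6 in wild type (SD, n = 4 each), with a lowest knockout array of 996 and a highest wild-type array of 480. Dppa4 stands on the list of germ cell markers as one of the 2 that rose. The other was Stk31, by 0.5 in Sohlh1 KO and 0.55 in Sohlh2 KO. The 12 tested markers of that list had a median log2 difference of -0.07 in Sohlh1 KO and -0.02 in Sohlh2 KO. Rnf17 of the list was at -0.33 in Sohlh1 KO (limma adjusted p = 0.0627) and -0.22 in Sohlh2 KO (limma adjusted p = 0.27) and did not pass. The likeness is a description over 12 arrays that share 3 genotypes, and any gene that is higher in both knockouts by about the same amount comes out near.

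**Figure D4:**
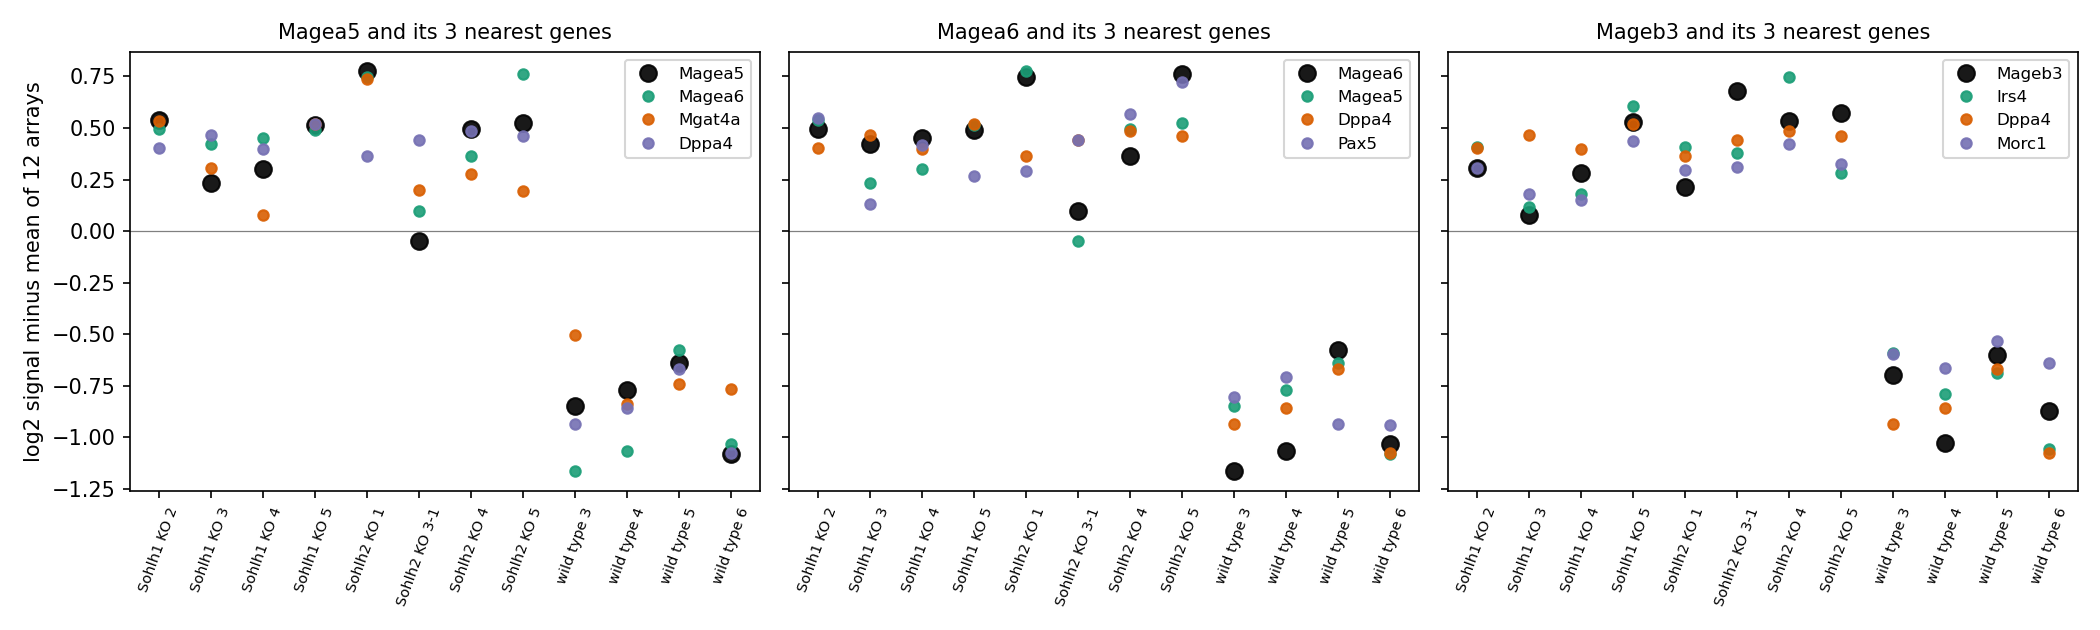
Log2(signal + 14.2) minus its mean over the 12 arrays, for Magea5, Magea6 and Mageb3 (black) and the 3 genes nearest to each (coloured), on each array from Sohlh1 KO through Sohlh2 KO to wild type. All genes shown lie below their mean on the 4 wild-type arrays, and Sohlh2 KO replicate 3-1 is the knockout array lowest for Magea5 and Magea6.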

How the data were processed

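Whole testes of 12 pools of mice were measured on Affymetrix arrays. The deposited table holds signal intensity values on a linear scale, which the submitters' processing notes tie to MAS5 and GCOS, in versions not given in the sources used here. In the table the trimmed mean of each array, with 2% left out at each end, was 500.0, and array medians were 76.6 to 90.8. The number of arrays limits the precision.

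The sample titles gave the group and number of each array. The values were turned to log2(signal + 14.2), where 14.2 is the 20th percentile of all values of probe sets other than the 64 controls. Tested were the 28694 of 45037 probe sets that exceeded 48.6 (the 40th percentile) on 4 or more arrays. Symbols came from the platform's annotation, in which 34945 probe sets had 1 symbol, 932 several and 9160 none. By Entrez identifier 34741 of them matched the RefSeq table of GRCm38.p6, and 0 changed.

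Differences were fitted with limma 3.58.1 in R 4.3.3 (lmFit and eBayes with trend), two-sided, with the 12 arrays together and no term but genotype. Benjamini-Hochberg adjustment ran over all probe sets tested, and only differences with an adjusted p under 0.05 are said to have risen or fallen. The SE and p values rest on the spread between pools. A gene of a list was represented by its tested probe set of highest mean. The listed MAGE genes, the gene lists and the tests were chosen with earlier results of these data known. The rule for named genes took every listed MAGE gene, the other MAGE family genes that passed or had the smallest p, up to 3 genes of each list by the smallest p in Sohlh1 KO, and the 3 nearest genes of each germ-line type gene. Magee1, Nsmce3 and Magea7-ps go beyond it and were named after their values were seen.

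On simulated data for the Sohlh1 comparison, with 28694 probe sets of which 200 were changed, the fit recovered 26% of 50 changed by 1.5-fold and 60% of those by 2-fold, and 70% and 92% of the 3-fold and 4-fold ones. It called 15 unchanged probe sets. Same-numbered arrays of different groups had deviations from their group means that correlated at -0.12 to 0.10 over 9 pairs, so the numbers were not taken to pair the samples. Promoter sequences are from RefSeq. Figures were drawn with matplotlib 3.10.9. Alternatives were quantile normalization, median centring, other log offsets, filters and probe-set choices, eBayes without trend, array weights, fits of 2 groups, the replicate number as a block, a stricter threshold, and leaving out each array. Fits without the 2 arrays that went against their labels, without the 2 of raised 3' to 5' ratio, and without these 3 arrays together were chosen after seeing the data.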

Additional observations from a re-analysis of the deposited data

Results flagged for a closer look

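The 2 results below were picked out because 1 array of a group of 4 lay far from the other 3. Such a gap was looked for in 57 groups, and chance gives about 1 in 20 groups of this kind. The Sohlh1 signal on Sohlh2 KO replicate 1 was 126, against 465 to 563 on the other arrays labelled Sohlh2 KO. The Sohlh2 signal on Sohlh1 KO replicate 5 was 94.4, against 1556 to 1783 on the other arrays labelled Sohlh1 KO. On that log2 scale no array stood apart in this way for any probe set of the MAGE family genes looked at.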

How the results depend on the processing

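No listed MAGE probe set changed its call in the 26 to 28 settings in which it was tested by itself, in any of 3 comparisons. The genes were chosen by these same arrays, so this is a description only. The number of probe sets called in Sohlh1 KO against wild type, 600, fell to 343 in eBayes without trend, 183 at an adjusted p under 0.01 and 375 with each gene's probe sets averaged, while 1 probe set per gene, over 13702 features in both settings, gave 604. It was 1227 with array weights and 991 without the 2 arrays of raised 3' to 5' ratio. The 445 of Sohlh2 KO against wild type became 293 in eBayes without trend, 1075 with array weights, 283 in a fit of only those 2 groups, 144 at an adjusted p under 0.01, 747 without the 2 arrays of raised ratio and 767 without all 3 doubted arrays. Leaving out 1 array gave 230 to 1238 in Sohlh1 KO, the highest without Sohlh2 KO replicate 1, and 202 to 503 in Sohlh2 KO. Sohlh2 KO against Sohlh1 KO gave 9 calls without the 2 arrays that went against their labels and 11 without all 3. The cause of these changes, other than for the stricter threshold, was not tested.

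Of the 8 other MAGE genes the 1 call in Sohlh1 KO became 0 at an adjusted p under 0.01. The 0 in Sohlh2 KO became 1 with array weights and ranged over 0 to 2 when 1 array was left out, the 2 without replicate 3-1 being Mageb16 and Magea4. Over all settings the log2 difference of Sohlh1 KO from wild type was 1.10 to 1.30 for Magea5, 1.10 to 1.55 for Magea6 and 0.88 to 1.17 for Mageb3. That of Sohlh2 KO was 1.08 to 1.43 for Magea5, 1.13 to 1.59 for Magea6 and 1.05 to 1.40 for Mageb3, and the lowest values for Magea6 and Mageb3 came with a larger log offset. The replicate number as a block gave 463 calls in Sohlh1 KO and 401 in Sohlh2 KO, and it left the counts of MAGE genes as they were, but 2 calls of Smc5 were lost under it. Only 2 of 9 arrays with a shared number correlated best with their own number. Medians of all probe sets moved by less than 0.05 on the log2 scale under the scalings tried. The dim signals of Magel2, Magea4 and Magea7-ps limit what can be read from them.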
